A study of Homo sapiens with 12 samples.

Results

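A set of 7 genes that stands for the main myeloma translocations and for what MAF drives was followed in KMS-11 and KMS-34 multiple myeloma cells and in their carfilzomib-resistant derivatives. They were taken by name: FGFR3 and NSD2, the genes deregulated by t(4;14), MAF, the gene of t(14;16), MYC, MYCL, and the MAF targets ITGB7 and NUAK1. These 7 genes of 19775 measured were read by 19 of the 54613 probe sets of the Affymetrix Human Genome U133 Plus 2.0 array, namely 2 for FGFR3, 6 for NSD2, 6 for MAF, 1 for MYC, 2 for MYCL, 1 for ITGB7 and 1 for NUAK1. The 4 groups had 3 arrays each: KMS-11 and KMS-34, never selected in the drug, and a derivative of each, KMS-11/Cfz or KMS-34/Cfz, grown to resistance against 12 nM carfilzomib and then kept for 1 week without it. Carfilzomib is a proteasome inhibitor. KMS-11 and KMS-34 are established myeloma lines, described as t(4;14)-positive by the study, and KMS-11 is also known to carry t(14;16). Each derivative is 1 selected culture, so an effect of the drug selection and a chance difference between cultures cannot be told apart, and nothing in the labels says that the 3 samples of a group were separate cultures, so p-values measure the spread between these samples only.

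In t(4;14) the immunoglobulin heavy chain locus is joined to chromosome 4 between FGFR3, a receptor tyrosine kinase for fibroblast growth factors, and NSD2, a methyltransferase of histone H3 lysine 36, which brings immunoglobulin enhancers near both. In t(14;16) the same locus drives MAF, a basic leucine zipper transcription factor that in myeloma is known to raise cyclin D2, the β7 integrin subunit (ITGB7), the kinase NUAK1 (also called ARK5) and the chemokine receptors CCR1 and CX3CR1. MYC is a basic helix-loop-helix factor for growth and ribosome production that is often rearranged in myeloma, and MYCL is its paralog.

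The stretches upstream of the start sites of ITGB7, NUAK1 and MAF are shown because the first pair are MAF targets whose levels set the lines apart and the last is the factor itself. Each is the 250 bases before the RefSeq start on GRCh38.p14, on the minus strand, at chr12:53207252-53207501 for ITGB7, chr12:106138955-106139204 for NUAK1 and chr16:79600738-79600987 for MAF, written 5′ to 3′. Capitals mark the reverse complement of the MAF core TGCTGA.
ITGB7: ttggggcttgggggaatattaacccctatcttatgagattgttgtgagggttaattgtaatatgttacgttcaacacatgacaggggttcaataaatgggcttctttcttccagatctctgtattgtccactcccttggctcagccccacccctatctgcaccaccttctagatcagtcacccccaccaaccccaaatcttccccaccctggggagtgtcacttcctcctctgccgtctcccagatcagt
NUAK1: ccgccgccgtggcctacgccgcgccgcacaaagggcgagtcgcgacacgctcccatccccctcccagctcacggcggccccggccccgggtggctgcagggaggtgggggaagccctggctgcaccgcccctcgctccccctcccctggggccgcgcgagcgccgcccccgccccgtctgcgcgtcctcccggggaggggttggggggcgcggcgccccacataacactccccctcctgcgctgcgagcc
MAF: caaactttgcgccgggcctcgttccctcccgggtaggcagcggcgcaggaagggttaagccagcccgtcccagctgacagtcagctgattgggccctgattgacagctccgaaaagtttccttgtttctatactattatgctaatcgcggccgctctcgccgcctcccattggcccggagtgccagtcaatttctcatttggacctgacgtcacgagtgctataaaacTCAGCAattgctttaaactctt
The letters searched, on both strands, were the core TGCTGA, the full palindromic MAF sites, in which the core is joined by C or by CG to its reverse complement and which therefore contain it, and the E-box CACGTG of MYC. The core is in 14% of 35116 promoters of this length. Of the 6 member promoters searched (that of MYC was not used here) only that of MAF held it, 22 bases before the start. The full sites were in 0 of the 35116 promoters, and the E-box in 6.34% of them and in no member promoter. These are matches of letters only.

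The deposited values were on a log2 scale and centred for each probe set, so that a value tells how an array differs from the others and not how much mRNA there was. All values below are therefore relative, and levels of different genes cannot be compared. In bulk RNA of a culture, fewer cells that express a gene and less RNA per cell cannot be told apart. The KMS-34/Cfz replicate 1 array stood apart: it correlated with the others of its group at r of 0.759 and 0.811 over all probe sets, against 0.859 to 0.949 for array pairs of the other 3 groups. Of 8 plasma cell markers, 6 were higher in KMS-34 than in KMS-11 and 0 lower, with a median log2 difference of 0.72. Of all genes, 21.6% were higher and 20.5% lower. On selection 2 of the 8 fell in KMS-11/Cfz (SLAMF7 by 0.97 and MZB1 by 0.50), beside 1.94% of all genes. In KMS-34/Cfz 3 fell (SLAMF7 by 1.00, PRDM1 by 0.33 and IRF4 by 0.32), beside 4.69% of all genes. None passed upward, beside 1.63% and 5.4% of all genes, though CD38 did with the replicate number as a block (0.44, adjusted p = 0.02, and 0.34, adjusted p = 0.032). Among 16 analysed markers for monocytes, T cells, NK cells, stroma or red cells, 1 differed between the parental lines (HBB, 0.34), beside 42.1% of all genes. With the replicate block CD14 differed there as well (0.22, adjusted p = 0.021, and 0.057 without the block). Of the 16, 2 fell in KMS-34/Cfz (HBB, -0.29, and CD14, -0.32), beside 4.69% of all genes. The part of these markers in the results below was not tested, and whether they are absent cannot be read from centred values.

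The first question was how the genes differ between the 2 parental lines. In KMS-34, NUAK1 and ITGB7 were higher and FGFR3, MAF and MYCL lower than in KMS-11, NSD2 was higher on average over its probe sets, and MYC did not pass the test. Of the 7 genes, 6 thus passed, 3 higher and 3 lower, beside 42.1% of all genes, 21.6% higher and 20.5% lower. The test was limma with Benjamini-Hochberg adjustment over all genes (threshold 0.05, two-sided). The members are few and were chosen with earlier results of these data known, so the count cannot tell whether they are set apart.

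NUAK1, a kinase of the AMPK family, had relative log2 values of -0.11, 0.01 and -0.10 in KMS-11 and of 3.09, 3.28 and 3.22 in KMS-34. The groups lay far from each other and the log2 difference was 3.26 (SE 0.07, adjusted p = 4.7e-13), or 9.56-fold, place 116 among all genes by size. ITGB7, the β7 subunit of the integrins that bind MAdCAM-1 and E-cadherin, read 0.08, 0.14 and 0.14 in KMS-11 and 1.35, 1.46 and 1.36 in KMS-34. Its difference of 1.27 (SE 0.06, adjusted p = 5.5e-10) was 2.41-fold, and again no array of one line reached into the other.

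MAF went the other way. It read 0.78, 0.71 and 0.61 in KMS-11 and -0.15, 0.04 and -0.17 in KMS-34, a difference of -0.79 (SE 0.09, adjusted p = 2.9e-06) with no overlap. FGFR3 read 0.87, 0.94 and 0.93 in KMS-11 against -0.01, 0.11 and 0.04 in KMS-34, a difference of -0.87 (SE 0.07, adjusted p = 9.0e-08). The MAF target genes that differed were thus higher in the line in which MAF itself was lower.

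**Figure D1:**
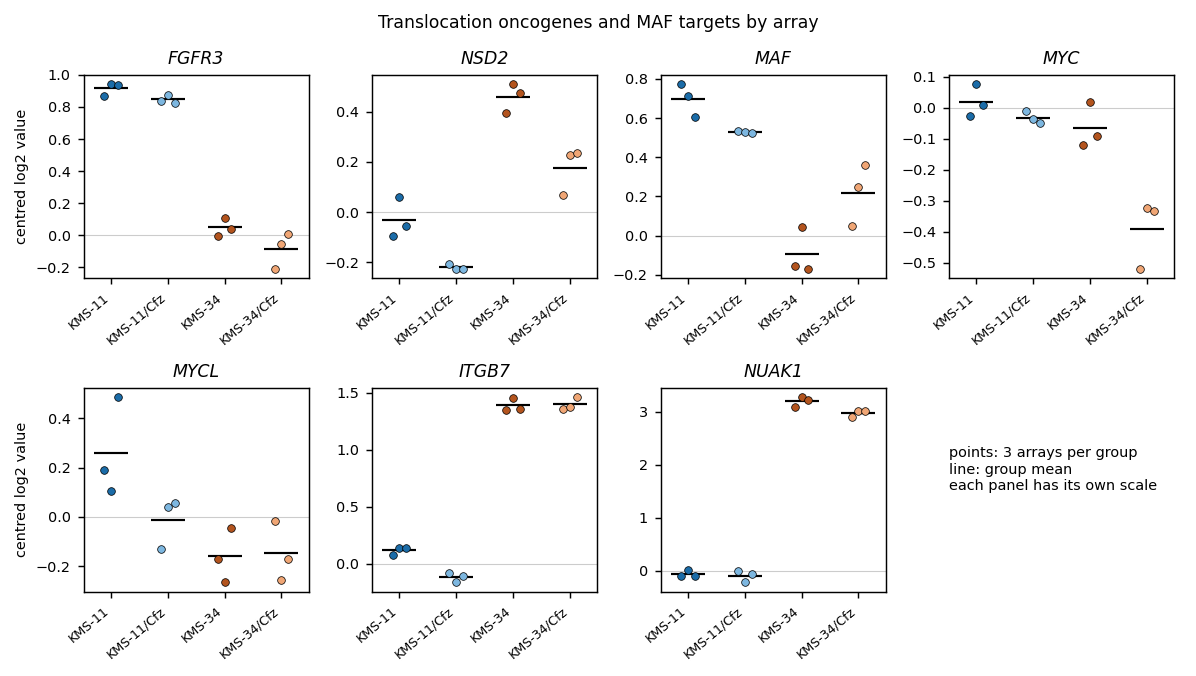
Relative log2 values (centred, vertical axis) of the 7 genes on the 12 arrays in the 4 groups, with points for arrays and lines for group means; each panel has its own scale. NUAK1 lies near 3 in KMS-34 and KMS-34/Cfz and near 0 in KMS-11 and KMS-11/Cfz, while FGFR3 and MAF have their highest means in KMS-11.

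MYC read -0.03, 0.08 and 0.01 in KMS-11 and -0.12, 0.02 and -0.09 in KMS-34. The lines overlapped, with a difference of -0.08 (SE 0.07, adjusted p = 0.39). MYCL was lower in KMS-34 by -0.42 (SE 0.10, adjusted p = 0.0037), from 0.19, 0.11 and 0.49 in KMS-11 to -0.17, -0.27 and -0.04. Of its 2 probe sets, 214058_at passed in the fit over all probe sets (-0.63, SE 0.14, adjusted p = 0.0021) and 215491_at did not (-0.21, adjusted p = 0.26).

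The average for NSD2 hid probe sets that ran in opposite directions. As an average, NSD2 read -0.09, 0.06 and -0.06 in KMS-11 and 0.39, 0.51 and 0.47 in KMS-34, a difference of 0.49 (SE 0.07, adjusted p = 3.0e-05). Of its probe sets, 3 were lower in KMS-34: 209052_s_at by -0.76, 209053_s_at by -0.57 and 209054_s_at by -0.59. The other 3 were higher, 222777_s_at by 2.08, 222778_s_at by 1.52 and 223472_at by 1.27. All 6 passed the test over all probe sets, which 34.8% of them did (17.7% higher, 17.1% lower), with adjusted p values from 4.0e-11 to 3.0e-05. For 222777_s_at the arrays read -1.30, -1.15 and -1.35 in KMS-11 and 0.80, 0.89 and 0.74 in KMS-34. For 209052_s_at they read 0.73, 0.97 and 0.88 in KMS-11 and 0.08, 0.13 and 0.09 in KMS-34. The sign of the difference in NSD2 thus turns with the probe set, and which parts of the transcript each one reads was not analysed here.

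FGFR3 and MAF were more uniform. Both FGFR3 probe sets were lower in KMS-34, 204380_s_at by -1.07 and 204379_s_at by -0.66. All 6 MAF probe sets had negative differences and 4 passed: 229327_s_at (-2.11, SE 0.13), 209348_s_at (-1.22), 209347_s_at (-0.60) and 206363_at (-0.37). The other 2 were 1566324_a_at (-0.38, adjusted p = 0.06) and 1566323_at (-0.08, adjusted p = 0.58). The clearest of them, 229327_s_at, read 2.18, 2.04 and 1.91 in KMS-11 and -0.19, 0.07 and -0.07 in KMS-34.

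**Figure D2:**
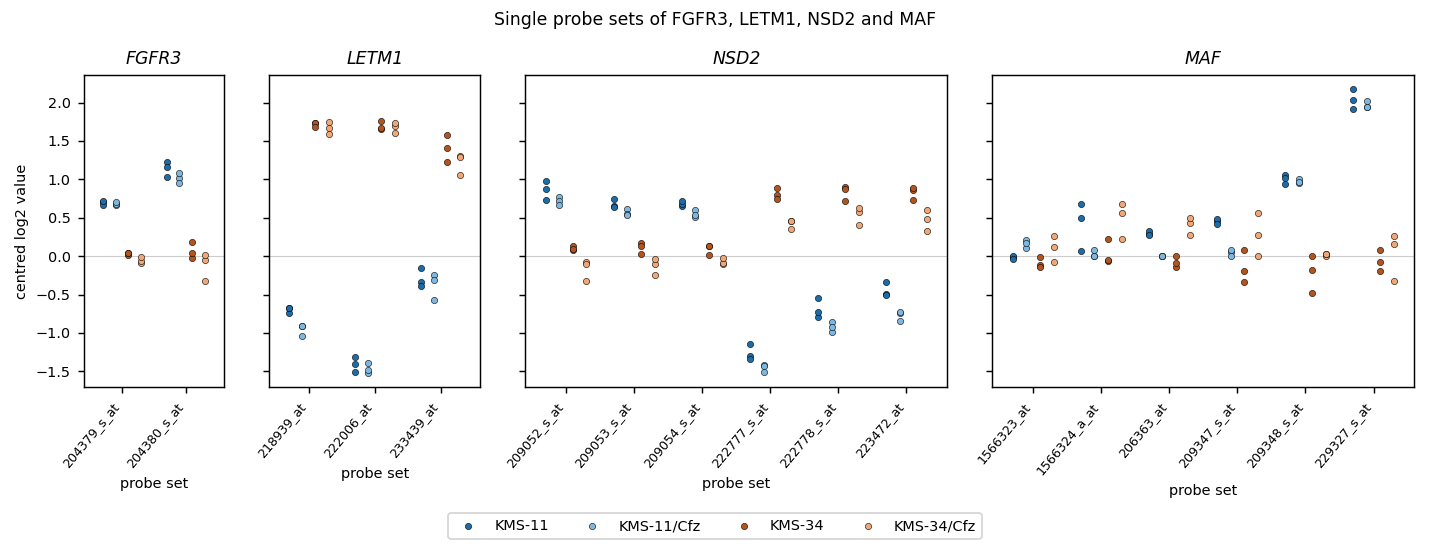
Relative log2 values (vertical axis) of the single probe sets of FGFR3, LETM1, NSD2 and MAF; each point is 1 array, coloured by group. In NSD2, 3 probe sets are lower and 3 higher in KMS-34 than in KMS-11, and in MAF the distance between the lines is widest at 229327_s_at and 209348_s_at.

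The measured genes next to each member in the GRCh38.p14 gene order, 5 on each side, were read for the same difference. Between the parental lines 21.6% of all genes were higher in KMS-34 and 20.5% lower. LETM1, a mitochondrial inner membrane protein whose gene lies between FGFR3 and NSD2, read -0.74, -0.81 and -0.86 in KMS-11 and 1.54, 1.64 and 1.65 in KMS-34. Its difference of 2.41 (SE 0.07, adjusted p = 2.8e-12) was the largest around FGFR3 and NSD2, and its 3 probe sets gave 2.41, 3.11 and 1.70. On the other side of FGFR3, TACC3, a spindle protein, was lower in KMS-34 by -0.64 (adjusted p = 3.1e-05), as were NAT8L (-0.46) and HAUS3 (-0.97) beyond NSD2. Of the 11 neighbours, LETM1 included, 1 was higher and 3 were lower.

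Around MAF, the noncoding LOC101928230 (-1.20, adjusted p = 2.5e-08), LINC01227 (-0.82) and DYNLRB2 (-0.30), a dynein light chain, were lower in KMS-34 as MAF was, while WWOX (0.31) and NUDT7 (0.33) were higher. Next to MYC, LRATD2 was higher (1.10) and GSDMC lower (-0.61), and PVT1 did not pass (-0.04, adjusted p = 0.83). Around ITGB7, 6 of 10 neighbours were higher and 2 lower, with a median of 0.36 beside 0.02 for all genes. Those included SLC61A1 (1.01), CSAD (0.89), RARG (0.58) and, lower, IGFBP6 (-1.41) and SOAT2 (-1.33). Around NUAK1 the neighbours that passed were WASHC4 (0.44), POLR3B (0.45) and C12orf75 (0.26), all far smaller than NUAK1. Around MYCL, 3 of 10 were higher and 4 lower. Over all 61 neighbours, 17 were higher and 13 lower, beside 21.6% and 20.5% of all genes, so the counts set the neighbours little apart.

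The second question was whether selection changed these differences. In the resistant derivatives the order of the lines was kept for NUAK1 (3.07, SE 0.07, adjusted p = 7.6e-13, 8.37-fold), ITGB7 (1.51, SE 0.06), FGFR3 (-0.93, SE 0.07), the average of the opposed NSD2 probe sets (0.40, SE 0.07) and MAF (-0.31, SE 0.09, adjusted p = 0.0081, and 0.073 under cyclic loess scaling). MYC, which had not passed between the parental lines, was lower in KMS-34/Cfz than in KMS-11/Cfz (-0.36, SE 0.07, adjusted p = 5.3e-04). MYCL did not pass there (-0.14, adjusted p = 0.34), though it did with array weights (-0.22, adjusted p = 0.03). Its probe set 214058_at passed there (-0.39, adjusted p = 0.038), beside 36.5% of all probe sets, and 215491_at did not (0.12, adjusted p = 0.55). The interaction (KMS-34 change minus KMS-11 change) did not pass for MYC (-0.28, adjusted p = 0.12) or MYCL (0.28, adjusted p = 0.32). A change of the line difference was thus not shown for MYC or MYCL. Of the 7, 6 passed between the derivatives, beside 43.3% of all genes (22.5% higher, 20.8% lower). The parental, selection and interaction comparisons share arrays and are not independent of each other.

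In KMS-11/Cfz 1 member passed. ITGB7 fell to -0.08, -0.16 and -0.11, below every KMS-11 array, by -0.23 (SE 0.06, adjusted p = 0.0472, 1 of 7 genes beside 3.57% of all genes, 1.94% downward). This call was lost when any of 9 of the 12 arrays was left out (adjusted p = 0.056 to 0.19) and in the probe-set fit (adjusted p = 0.15), while cyclic loess scaling turned its sign (0.12). The other 6 had differences from -0.27 (MYCL, adjusted p = 0.22) to -0.03 (NUAK1). FGFR3 read 0.84, 0.88 and 0.82, and its difference of -0.07 (adjusted p = 0.8) turned to 0.11 and 0.02 under other scalings. MAF read 0.54, 0.53 and 0.53 (-0.17, adjusted p = 0.43).

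In KMS-34/Cfz, MYC and NSD2 fell and MAF rose, 3 of 7 genes beside 10.1% of all genes, 5.4% upward and 4.69% downward. MYC read -0.52, -0.32 and -0.33, below all KMS-34 arrays, a change of -0.33 (SE 0.07, adjusted p = 0.0074). NSD2 read 0.07, 0.23 and 0.23, a change of -0.28 (SE 0.07, adjusted p = 0.015), again without overlap. All 6 NSD2 probe sets had negative values, from -0.39 to -0.16, and 222777_s_at (-0.39, adjusted p = 0.0077) and 223472_at (-0.35, adjusted p = 0.026) passed, beside 7.05% of all probe sets, 3.18% downward and 3.87% upward. In KMS-11/Cfz all 6 were negative as well, from -0.33 to -0.11, and none passed, beside 1.75% of all probe sets. With only the KMS-34 and KMS-34/Cfz arrays in the fit, the calls of MYC (adjusted p = 0.081) and NSD2 (adjusted p = 0.12) were lost, and that of NSD2 also without KMS-34 replicate 2 (adjusted p = 0.0524).

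MAF read 0.05, 0.25 and 0.36 in KMS-34/Cfz, all above the 3 KMS-34 arrays. The rise was 0.31 (SE 0.09, adjusted p = 0.032), and it differed from the change in KMS-11 by 0.48 (SE 0.12, adjusted p = 0.03), which made MAF the member that passed this interaction test, beside 6.44% of all genes, 3.7% upward and 2.74% downward. The probe sets gave different answers. 206363_at rose by 0.47 (SE 0.08, adjusted p = 0.0017), from -0.14, 0.01 and -0.08 to 0.28, 0.43 and 0.50, and its interaction was 0.77 (adjusted p = 0.0012). 209347_s_at and 1566324_a_at also passed the interaction (0.83, adjusted p = 0.019, and 0.84, adjusted p = 0.037), beside 3.8% of all probe sets, 2.26% upward. The probe sets that set the parental lines most apart did not pass: 229327_s_at changed by 0.10 (adjusted p = 0.81) and 209348_s_at by 0.23 (adjusted p = 0.23). As a result 206363_at and 1566324_a_at were higher in KMS-34/Cfz than in KMS-11/Cfz (0.40 and 0.46), against the gene average (36.5% of all probe sets passed this comparison). The call for the rise was lost in 5 of 12 omissions of 1 array (replicate 3 of KMS-11/Cfz, 2 and 3 of KMS-34/Cfz, 1 and 3 of KMS-34; adjusted p up to 0.12), and that of the interaction in 9 of 12 (adjusted p = 0.06 to 0.084). Cyclic loess scaling (adjusted p = 0.054 and 0.083), equal median absolute values (0.065 and 0.064) and the fit of the 2 groups alone (0.16 for the rise) lost them too.

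The other members did not pass in KMS-34/Cfz. NUAK1 read 2.90, 3.01 and 3.01 (-0.22, SE 0.07, adjusted p = 0.082), and it passed with arrays scaled to equal median absolute values (-0.58, adjusted p = 0.041). That scaling divides centred values by a measure that can carry differences between groups, so it does not decide whether NUAK1 fell. ITGB7 read 1.35, 1.38 and 1.46 (0.01, adjusted p = 0.97), FGFR3 -0.21, -0.06 and 0.01 (-0.14, adjusted p = 0.26; -0.33, adjusted p = 0.018, under cyclic loess scaling), and MYCL -0.02, -0.25 and -0.17 (0.01, adjusted p = 0.98). The FGFR3 interaction also passed under cyclic loess scaling (-0.44, adjusted p = 0.032). Because the values were centred, differences between the lines can enter that scaling, so whether FGFR3 changed cannot be read from it. Without the KMS-34/Cfz replicate 1 array that stood apart, MYC (-0.26, adjusted p = 0.014), NSD2 (-0.23, adjusted p = 0.033), MAF (0.40, adjusted p = 0.0052) and the MAF interaction (0.57, adjusted p = 0.0048) still passed, and no other member did in KMS-34/Cfz.

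Ordering the group means shows which neighbours in the order are apart. FGFR3 fell from KMS-11 (0.92 ± 0.04, SD, n = 3) through KMS-11/Cfz (0.85 ± 0.03) to KMS-34 (0.05 ± 0.06) and KMS-34/Cfz (-0.09 ± 0.11), and only the step from KMS-11/Cfz to KMS-34 passed (-0.80, adjusted p = 2.0e-07). As an average over its probe sets, MAF ran from KMS-11 (0.70 ± 0.09) and KMS-11/Cfz (0.53 ± 0.01), which did not differ by the test, to KMS-34/Cfz (0.22 ± 0.16) and KMS-34 (-0.09 ± 0.12), each lower than the one before. The last of these steps was lost in 5 of 12 omissions of 1 array. Not every MAF probe set had this order. The means of 206363_at and 1566324_a_at were highest in KMS-34/Cfz (0.40 and 0.49, against 0.29 and 0.41 in KMS-11). That of 1566323_at was highest in KMS-11/Cfz (0.16). As an average over its probe sets, NSD2 was highest in KMS-34 (0.46 ± 0.06), then KMS-34/Cfz (0.18 ± 0.09), KMS-11 (-0.03 ± 0.08) and KMS-11/Cfz (-0.22 ± 0.01), where the last step did not pass (adjusted p = 0.18). This order is not that of 209052_s_at, 209053_s_at and 209054_s_at. Their means were highest in KMS-11 (0.86, 0.68 and 0.68) and lowest in KMS-34/Cfz (-0.17, -0.13 and -0.07). MYC was set apart in KMS-34/Cfz (-0.39 ± 0.11) from the other 3 groups, whose means lay between -0.06 and 0.02. NUAK1 means were 3.19 ± 0.10 and 2.97 ± 0.06 in KMS-34 and KMS-34/Cfz, and -0.07 ± 0.07 and -0.10 ± 0.11 in KMS-11 and KMS-11/Cfz.

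The MAF neighbours moved in KMS-34/Cfz as well. Of 10, 4 rose and 0 fell, beside 5.4% of all genes that rose: DYNLRB2 by 0.42 (SE 0.08, adjusted p = 0.0061), WWOX, a tumour suppressor gene at a fragile site, by 0.40 (SE 0.08, adjusted p = 0.0044), CDYL2, a chromodomain protein, by 0.35 (SE 0.06, adjusted p = 0.0028) and NUDT7 by 0.31 (adjusted p = 0.02). WWOX read 0.15, 0.28 and 0.19 in KMS-34 and 0.43, 0.66 and 0.73 in KMS-34/Cfz, with no overlap. CDYL2 read -0.10, 0.05 and 0.08 in KMS-34 and 0.39, 0.32 and 0.37 in KMS-34/Cfz. The interaction passed for LOC101928230 (0.56, adjusted p = 0.011), CDYL2 (0.37, adjusted p = 0.024) and WWOX (0.40, adjusted p = 0.043). The call of the rise was lost for WWOX (adjusted p = 0.056), CDYL2 (adjusted p = 0.0513) and NUDT7 (adjusted p = 0.1) when only KMS-34 and KMS-34/Cfz entered the fit, and that of the interaction in 10 of 12 omissions of 1 array for WWOX and in 6 for CDYL2 (also with equal median absolute values, adjusted p = 0.057). At the other loci, selection changed TMEM129 (0.29 in KMS-34/Cfz, adjusted p = 0.043, lost in 7 of 12 omissions) and CKAP4 (-0.41 in KMS-11/Cfz, adjusted p = 0.0043). In KMS-11/Cfz, LOC101928230 fell by -0.35 (adjusted p = 0.031), lost in 5 of 12 omissions.

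Of 8 MAF targets known in myeloma, 5 were higher in KMS-34 and 0 lower (median 0.68), beside 21.6% and 20.5% of all genes. Without ITGB7 and NUAK1, 3 of 6 were higher and 0 lower (median 0.31). The same shares stand beside the parental counts of the lists that follow. RND3 differed by 1.18 (SE 0.08), DEPTOR, an mTOR inhibitor that is abundant in MAF-translocated myeloma, by 0.93 (SE 0.08), and CCR1 by 0.43 (SE 0.10). CCND2, cyclin D2, read 0.03, 0.11 and 0.04 in KMS-11 and -0.05, 0.15 and 0.08 in KMS-34, a difference of 0.00, and CX3CR1 did not pass. After selection CX3CR1, the fractalkine receptor, moved opposite ways. It fell in KMS-11/Cfz from 0.14, 0.38 and 0.27 to -0.38, -0.49 and -0.40 (-0.69, SE 0.10, adjusted p = 0.0014). It rose in KMS-34/Cfz from 0.38, 0.59 and 0.38 to 0.88, 1.23 and 1.19 (0.65, SE 0.10, adjusted p = 9.1e-04), and the interaction was 1.34 (SE 0.14, adjusted p = 9.6e-05). In KMS-34/Cfz DEPTOR rose by 0.31 (adjusted p = 0.022) and RND3 fell by 0.67 (adjusted p = 1.9e-04). The rise of DEPTOR was lost when replicate 1 or 3 of KMS-34 or replicate 2 of KMS-34/Cfz was left out, and under cyclic loess scaling (adjusted p = 0.29).

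Among 10 analysed genes of the MAF family and its leucine zipper partners, 3 were higher and 4 lower in KMS-34, MAF among the latter. NFE2L3 (-1.26), MAFG (-1.02) and MAFF (-0.73), of which the latter pair are small MAF proteins, were lower and BACH2 (1.25), a B cell repressor that pairs with small MAFs, higher. BACH2 rose further in KMS-34/Cfz by 0.72 (SE 0.08, adjusted p = 9.7e-05), and MAFF by 0.31 (adjusted p = 0.034, lost in 9 of 12 omissions). In KMS-11/Cfz none of the 10 passed.

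Downstream of FGFR3, 17 genes known to be induced by FGF and ERK signalling, mostly feedback inhibitors, were read. Between the parental lines 9 were lower in KMS-34 and 5 higher (median -0.32), beside 20.5% and 21.6% of all genes. DUSP4 (-1.15) and SPRY1 (-0.88) were lower, FOS (1.53) and EGR1 (0.89) higher. After selection the directions differed by line. In KMS-11/Cfz 4 fell and 0 rose, beside 1.94% and 1.63% of all genes: DUSP6, an ERK phosphatase, by 0.58 (SE 0.10, adjusted p = 0.0048), SPRY2 by 0.47 (adjusted p = 0.013), PHLDA1 by 0.40 (SE 0.06, adjusted p = 0.0022) and SPRED1 by 0.38 (adjusted p = 0.037). KMS-34/Cfz had 6 that rose and 1 that fell, and the 6 included the 4 that had fallen in KMS-11/Cfz: DUSP6 rose by 0.88 (SE 0.10, adjusted p = 9.1e-05), EGR1 by 0.81 (SE 0.08), PHLDA1 by 0.65 (SE 0.06, adjusted p = 2.3e-05), SPRY2 by 0.38, SPRED1 by 0.36 and DUSP4 by 0.36, while SPRY1 fell by 0.27. Of the 17, 6 passed the interaction, all upward, beside 3.7% of all genes. Among all genes 5.4% rose and 4.69% fell in KMS-34/Cfz.

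DUSP6 read 0.39, 0.46 and 0.18 in KMS-11, -0.17, -0.26 and -0.29 in KMS-11/Cfz. In KMS-34 it read 0.91, 1.08 and 0.66, and in KMS-34/Cfz 1.70, 1.79 and 1.78. PHLDA1 read 0.49, 0.44 and 0.45 in KMS-11, 0.04, 0.07 and 0.06 in KMS-11/Cfz. In KMS-34 it read -0.13, -0.12 and -0.11, and in KMS-34/Cfz 0.40, 0.60 and 0.59. No group overlapped with its parent for either gene. The fall of DUSP6 was lost under cyclic loess scaling (adjusted p = 0.47), that of SPRED1 in 7 of 12 omissions and that of SPRY2 in 4. With only KMS-34 and KMS-34/Cfz in the fit, SPRY2, SPRED1, DUSP4 and SPRY1 lost their calls there (adjusted p = 0.093, 0.12, 0.1 and 0.16). FGFR3 itself did not pass in either selection.

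**Figure D3:**
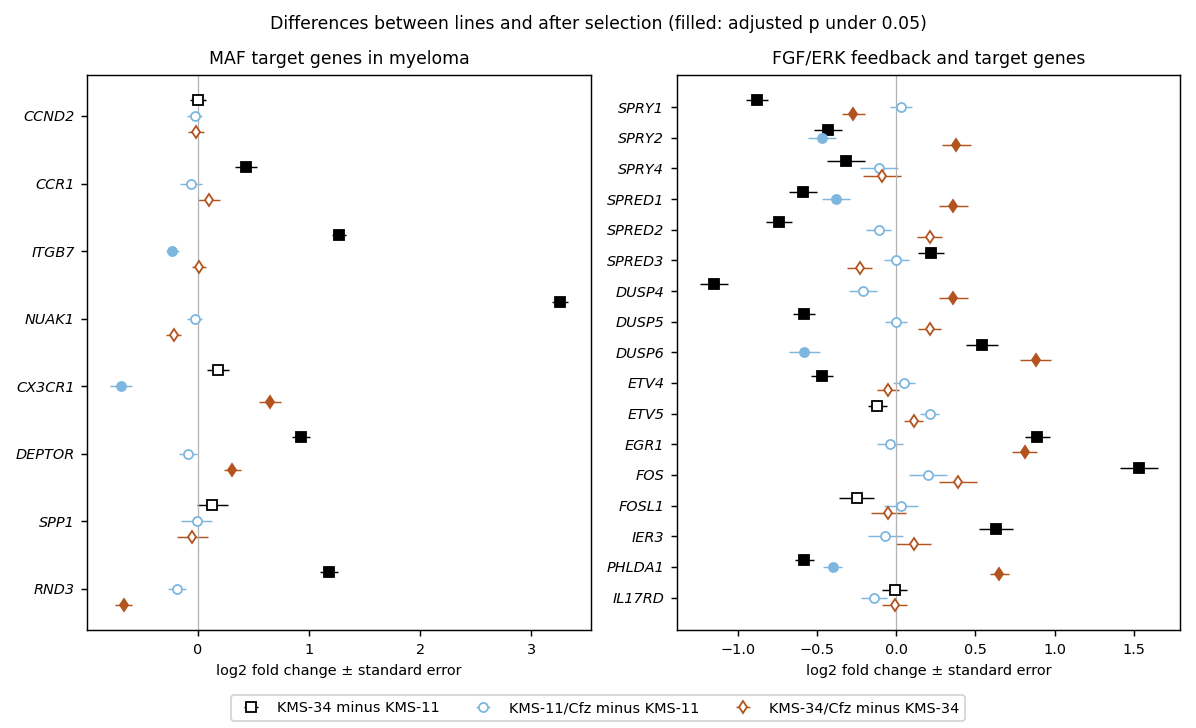
Log2 differences with standard errors (horizontal axis) of 8 MAF targets (left) and 17 FGF/ERK feedback and target genes (right) between the parental lines (squares) and after selection in KMS-11 (circles) and KMS-34 (diamonds); filled symbols passed the test. DUSP6, SPRY2, SPRED1, PHLDA1 and CX3CR1 have filled circles below 0 and filled diamonds above 0.

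Of 12 analysed FGF receptors and adaptors, 4 were higher and 3 lower in KMS-34, FGFR3 among the latter, beside 21.6% and 20.5% of all genes. FGFR2 (-1.12) and PLCG1 (-0.51) were lower, and GAB1 (0.78), the decoy-like receptor FGFRL1 (0.74) and the phosphatase PTPN11 (0.59) higher. In KMS-34/Cfz PLCG1 rose by 0.24 and FGFR4 fell by 0.22, calls lost in 4 and 5 of 12 omissions, and in KMS-11/Cfz none of the 12 passed. Beside NSD2, the histone H3 lysine 36 enzymes NSD1 (0.25) and KDM4A (0.34) were higher and SETD2 (-0.45) and NSD3 (-0.31) lower in KMS-34, which made 5 of 10 with NSD2. KDM4A, a demethylase, rose in KMS-34/Cfz by 0.22 (adjusted p = 0.032, lost in 6 of 12 omissions).

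The 8 genes linked to t(4;14) myeloma, FGFR3 and NSD2 included, gave 3 higher and 3 lower in KMS-34, beside 21.6% and 20.5% of all genes. CDH2, N-cadherin, read -1.81, -1.87 and -1.91 in KMS-11 and 0.81, 1.06 and 0.84 in KMS-34, a difference of 2.77 (SE 0.10, adjusted p = 3.4e-11); between the derivatives it was 2.86. JAM3, a junctional adhesion molecule, was higher (1.01), and KLF4 (-0.31) and DSG2 (-0.29) were lower. KLF4, a zinc finger transcription factor, rose in KMS-11/Cfz by 0.55 (adjusted p = 8.8e-04) and also in KMS-34/Cfz (0.30, adjusted p = 0.019, lost in 4 of 12 omissions), and SERPINE2 rose in KMS-34/Cfz (0.29, adjusted p = 0.0086).

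Of the 7 genes of the β7 integrins and what they bind, ITGA4, the α4 subunit that pairs with β7 and β1, was higher in KMS-34 (0.58) and fell in KMS-11/Cfz by 0.49 (SE 0.07, adjusted p = 0.0016). ITGAE, the αE subunit, was lower (-0.73), as was its ligand CDH1 (-0.66). In the NUAK1 pathway, 2 of 10 were higher and 2 lower, with CAB39 (-0.80) and STK11 (-0.34), parts of the LKB1 complex that activates the kinase, lower and CAB39L (0.54) higher; selection changed none of the 10 in either line.

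In the MYC and MAX network, 2 of 12 were higher in KMS-34 and 6 lower, with MLXIP (1.38), a partner of MLX, the largest difference, then MYCL, MGA (-0.30) and MXD1 (-0.26). MYC was the gene of this list that passed in KMS-34/Cfz. Of 21 analysed MYC targets of ribosome production and growth, 9 were higher in KMS-34 and 2 lower (median 0.10), among them CDK4 (0.52), RRP12 (0.43), NOLC1 (0.39) and, lower, PPAT (-0.83), a purine synthesis enzyme. In KMS-34/Cfz, where MYC fell, 2 of the 21 fell and 0 rose, beside 4.69% and 5.4% of all genes: PPAT by 0.51 (SE 0.07, adjusted p = 5.5e-04) and NOLC1 by 0.28 (adjusted p = 0.016), with a list median of -0.06. In KMS-11/Cfz SRM, spermidine synthase, fell by 0.27 (adjusted p = 0.026, lost in 6 of 12 omissions).

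Of the other translocation oncogenes of myeloma, 4 of 6 were analysed. CCND1, cyclin D1, the gene of t(11;14), read 1.48, 1.88 and 1.78 in KMS-34 and -0.44, -0.34 and -0.20 in KMS-34/Cfz. It fell by 2.04 (SE 0.10, adjusted p = 5.9e-08), place 4 among all genes by size, and in KMS-11/Cfz by 0.48 (SE 0.10, adjusted p = 0.016), with an interaction of -1.56 (SE 0.14, adjusted p = 2.6e-05). The qRT-PCR of the study gave the other order, with a larger fall of CCND1 in KMS-11/Cfz than in KMS-34/Cfz. The study also lists a CCND1 probe set that fell more in KMS-11/Cfz than this gene average. Single CCND1 probe sets are not given here. Where KMS-34 had stood above KMS-11 (1.06), KMS-34/Cfz stood below KMS-11/Cfz (-0.50, adjusted p = 7.8e-04), but under cyclic loess scaling the derivatives did not differ by the test (0.00, adjusted p = 0.98). The fall in KMS-11/Cfz was also lost under that scaling (-0.29, adjusted p = 0.099) and in 4 of 12 omissions of 1 array (replicates 1 and 3 of KMS-11/Cfz, 1 and 2 of KMS-11). IRF4, the plasma cell transcription factor, was higher in KMS-34 (0.63) and fell in KMS-34/Cfz by 0.32 (SE 0.07, adjusted p = 0.014).

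The genes whose 12 values ran most like each member were found by Pearson r, given as a description because the arrays share 2 cell lines. For ITGB7 and NUAK1 these were RAB30, GOT1 and SLC16A14 (r from 0.998 to 0.999) and BST2, HMCES and TMEM132D-AS1 (r of 0.999), but 2497 and 2487 genes correlated above 0.9 with them. For FGFR3 they were ETS1, ISG20 and NSDHL (0.996 to 0.998, 2326 genes above 0.9), for NSD2 TCTN3, SQLE and VPS26B (0.987), and for MAF ANKRD12, DROSHA and ENPP4 (0.986 to 0.989). MYC ran with RGMB, SDE2 and GNPAT (0.985 to 0.988), with 158 genes above 0.9, and MYCL with KDM3A, NPNT and CENPI (0.931 to 0.961), with 8.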

How the data were processed

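Total RNA of both parental lines and both derivatives, 3 samples each, was hybridised to 1-colour Affymetrix arrays. The authors normalized the arrays by RMA (version not given in the sources used here) and deposited log2 values from -7.75 to 8.64 for 54613 probe sets, each centred near the middle of its 12 values, since 99.99% had 3 to 9 values below 0. The centring reference and the absolute levels are unknown, so no dim probe sets were filtered. Array medians lay between -0.02 and 0.01. The labels give 4% serum for the profiled cells. The methods of the study give a higher share of serum for culture, and which applied to these arrays is not known. Groups were taken from sample titles.

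Probe sets that name 1 gene (41091, by the platform annotation, with 41037 matched to a RefSeq gene number) were averaged per gene, and those with several genes (1801) or none (11721) were left out. All 12 arrays entered 1 fit of group means with limma 3.58.1 (lmFit and eBayes; R 4.3.3), with Benjamini-Hochberg adjustment over 19775 genes, or over all probe sets for single probe sets, and a threshold of 0.05. The fit was also run on simulated arrays with independent normal noise and equal spread in all groups. No simulated array stood apart, so that run does not show how the fit performs on these arrays. The number of arrays limits the precision. Named are the members and their probe sets, up to 4 genes per list and comparison with the largest changes past the threshold, 3 most similar genes per member, and 5 neighbours on each side; a few others (such as PLCG1) were picked with their values known. The members and gene lists were chosen with earlier results of these data known. Alternatives were another choice of probe set, a replicate block, 3 other scalings, fits of 2 groups, array weights, robust eBayes, a threshold of 0.01 and leaving out arrays. The scalings were run on the centred values. Cyclic loess thus fitted its trend against relative values and not signal intensity. Equal median absolute values divide each array by its distance from the centring reference. Differences between the lines can enter both, so changes under them can come from the scaling itself. Promoters came from RefSeq (GRCh38.p14). Tables and figures were made with Python 3.11.15, numpy 2.4.6, pandas 2.3.3 and matplotlib 3.10.9.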

Additional observations from a re-analysis of the deposited data

Results flagged for a closer look

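The change on selection differed between KMS-34 and KMS-11 by the interaction term of the same limma fit (KMS-34 change minus KMS-11 change, log2, 3 arrays per group, Benjamini-Hochberg adjustment over all genes) for 17 of the 197 genes followed here (8.63%, beside 6.44% of all genes), and the causes were not tested. Among the members this was MAF (0.48, adjusted p = 0.03). In its gene neighbourhood it was LOC101928230 (0.56, adjusted p = 0.011), WWOX (0.40, adjusted p = 0.043, lost in 10 of 12 omissions of 1 array) and CDYL2 (0.37, adjusted p = 0.024, lost in 6 of 12), and next to NUAK1 it was CKAP4 (0.44, adjusted p = 0.018), a protein of the endoplasmic reticulum.

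Of the genes induced by FGF and ERK signalling, DUSP6 (1.46, adjusted p = 4.2e-05), PHLDA1 (1.05, adjusted p = 1.3e-05), SPRY2 (0.85, adjusted p = 0.0016), EGR1 (0.85, adjusted p = 5.2e-04), SPRED1 (0.74, adjusted p = 0.0038) and DUSP4 (0.56, adjusted p = 0.017) differed. EGR1 lost its call under cyclic loess scaling (adjusted p = 0.063), and DUSP4 lost its call there (adjusted p = 0.46), with the probe set of largest variance and without KMS-11/Cfz replicate 3.

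Of the MAF targets and partners, CX3CR1 (1.34, adjusted p = 9.6e-05), RND3 (-0.48, adjusted p = 0.027, lost in 7 of 12 omissions of 1 array) and BACH2 (0.51, adjusted p = 0.018, lost under cyclic loess scaling with adjusted p = 0.12 and without KMS-11/Cfz replicate 2 or KMS-11 replicate 2) differed. CCND1 (-1.56, adjusted p = 2.6e-05), the MYC target PPAT (-0.46, adjusted p = 0.017) and the plasma cell marker MZB1 (0.54, adjusted p = 0.0018), an endoplasmic reticulum protein for immunoglobulin folding, differed as well. For CCND1 the qRT-PCR of the study gave the larger fall in KMS-11/Cfz, the other order.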

How the results depend on the processing

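The counts of members called between the lines, 6 parental and 6 resistant, stayed within 1.5 times under every alternative run. The 1 call in KMS-11/Cfz became 0 with the probe set of largest variance, the replicate block, aligned array medians, cyclic loess scaling, equal median absolute values, the threshold of 0.01 and 3 doubtful arrays left out together (chosen after seeing the data), 3 with array weights (NSD2, MAF, ITGB7), and 0 to 1 with 1 array left out. The 3 calls in KMS-34/Cfz became 0 with only the 2 groups in the fit and 1 (MYC) at the threshold of 0.01. The 1 interaction call (MAF) became 0 with the probe set of largest variance, equal median absolute values and the threshold of 0.01, 2 with array weights (MAF and ITGB7), and 0 to 1 with 1 array left out; under cyclic loess scaling the 1 call was FGFR3 (-0.44, adjusted p = 0.032) in place of MAF (adjusted p = 0.083). The deviations of same-numbered samples correlated at r from -0.14 to 0.56, and not every pair was above 0.1, so the numbers were not taken as pairs. Over the genes of the lists and the main neighbours, the replicate block ended 3 calls and added 7, none of the latter for a member. It ended those of the member ITGB7 in KMS-11/Cfz (-0.23, adjusted p = 0.065), SPRED1 in KMS-11/Cfz (-0.38, adjusted p = 0.0507) and SPRY4 between the parental lines (-0.32, adjusted p = 0.06).

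Signs turned as follows, where cyclic loess scaling and equal median absolute values can carry differences between the lines because the values were centred. Cyclic loess scaling gave 0.11 for FGFR3, 0.12 for ITGB7 and 0.16 for NUAK1 in KMS-11/Cfz, -0.23 for ITGB7 in KMS-34/Cfz and -0.36 for its interaction, and equal median absolute values gave 0.02 for FGFR3 in KMS-11/Cfz and -0.17 for ITGB7 in KMS-34/Cfz. MYCL in KMS-34/Cfz turned to -0.11 with the probe set of largest variance (214058_at, also -0.11 in the probe-set fit), -0.08 with array weights and -0.06 with the 3 arrays left out. With 1 array left out, NUAK1 in KMS-11/Cfz ranged from -0.07 to 0.03, MYCL in KMS-34/Cfz from -0.05 to 0.07, and ITGB7 there from -0.02 to 0.04. Single probe sets of NSD2 gave -0.76, -0.57 and -0.59 between parental lines and -0.89, -0.69 and -0.61 between derivatives. Those of MAF gave 0.46, 0.40 and 0.23 between derivatives and 0.17 in KMS-11/Cfz, and 215491_at of MYCL gave 0.12 between derivatives. With only KMS-34 and KMS-34/Cfz in the fit, the calls there of DEPTOR, MAFF, PLCG1, FGFR4, KDM4A, KLF4, SERPINE2, NOLC1 and IRF4 were also lost (adjusted p = 0.079 to 0.2). The cause was not tested. Of 420 values with 1 array left out, 389 kept their direction and side of the threshold. For single probe sets this was 51 of 80, with 12 reversed and 16 weaker, and for the other alternatives 306 of 343.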
